A study of Mus musculus with 8 samples.

Results

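The clustered histone genes are the entries of the count table whose symbol begins with Hist1h, Hist2h, Hist3h or Hist4h, and this rule found 70 of 48440 entries. They comprise 6 linker histone genes (H1) and 20 H2a, 19 H2b, 12 H3 and 13 H4 genes, of which 67 are annotated as protein coding and 3 as pseudogenes (Hist1h2aj, Hist1h2al and Hist3h2bb-ps). RNA was measured in cardiomyocytes purified from hearts of C57BL6/J mice on postnatal day 2, in 1 male and 1 female sample from each of 4 litters, so that both groups, male and female, have 4 samples of 1 strain and age with no treatment and no engineered allele named. The labels do not say whether a sample is 1 heart or several pooled, nor by which method the cells were purified. Values are raw read counts per gene, and CPM is a count scaled to a common library total.

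Clustered histone genes supply the histones that package newly copied DNA, and most are transcribed in S phase. Their typical mRNA has no introns and no poly(A) tail: it ends shortly after a conserved stem-loop, which binds the protein SLBP and is the signal for cutting and for rapid decay when DNA replication stops. Some members also make a longer transcript that is cut at an ordinary poly(A) signal, and genes outside the clusters encode replacement histones, which are made throughout the cell cycle. Mouse cardiomyocytes are known to leave the cell cycle in the days after birth.

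All 70 symbols matched the GENCODE M21 annotation on GRCm38 (the mm10 assembly), from which positions and transcript sequences are given. The Hist1 cluster lies on chromosome 13 and holds 56 members, Hist2 on chromosome 3 holds 10, Hist3 on chromosome 11 holds 3, and Hist4h4 stands alone on chromosome 6. A stem-loop motif, spelled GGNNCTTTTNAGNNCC with the bases on both sides of the loop able to pair, was searched on the transcript strand. In the 100 bases after the stop codon it was found in 25 of 31 members annotated that far, against 2 of 19695 other genes, and these 2 are themselves histone genes, H2afx and H2bfm. The annotated RNA ends are shown because 7 of the 8 members with the most counts have a poly(A) signal there, which most members lack. First are the stem-loops, in capitals, of the leading H1 gene, an H2a gene, 2 H4 genes and an H2a gene that had no counts, each with its flanks.
Hist1h1c: caaaaGGCTCTTTTCAGAGCCaccac
Hist3h2a: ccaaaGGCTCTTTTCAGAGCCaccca
Hist1h4h: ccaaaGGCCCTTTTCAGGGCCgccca
Hist1h4i: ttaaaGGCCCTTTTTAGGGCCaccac
Hist2h2ac: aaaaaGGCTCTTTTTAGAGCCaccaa
The 16-base core took 6 forms over the 43 members with one in their longest transcript, and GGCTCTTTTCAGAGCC was the form in 25 of them. The printed stretch of Hist1h1c lies at chr13:23739507-23739532 on the plus strand, in the annotated 3′ UTR, and the annotated transcript runs on for 835 bases past it.

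Second are the poly(A) signals, the hexamers AATAAA or ATTAAA in capitals, that stand near the annotated ends of 5 leading members.
Hist1h1c: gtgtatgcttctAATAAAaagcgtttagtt
Hist2h2be: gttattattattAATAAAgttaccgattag
Hist3h2a: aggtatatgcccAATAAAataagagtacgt
Hist1h4h: ccacattttcttATTAAAagagcgaacatg
Hist3h2ba: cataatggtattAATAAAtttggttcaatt
Such a hexamer was found on the transcript strand in the last 50 annotated bases of 17 of 67 coding members (25.4%), against 72.4% of 21799 other protein-coding genes. A member counted if any of its annotated transcripts had one, while other genes were scored on their longest protein-coding transcript alone. Hist1h2bq counted through a transcript other than its longest. The printed stretch of Hist1h1c lies at chr13:23740330-23740359, 8 bases before the annotated end. In Hist1h4h both signals stand close together: 41 bases follow the printed stem-loop stretch and 14 follow the printed hexamer stretch. A match of letters is a description of the annotation, not a measured RNA end.

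Over all 8 libraries, the 70 members together had 22516 counts, and a handful of genes carried them. Hist1h1c, which encodes a somatic linker histone, had 11420 counts, or 50.7% of the total. Hist1h2bc and Hist2h2be, both H2b genes, had 4468 and 3222 counts, and Hist3h2a, an H2a gene, had 1593, so that 4 genes held 91.9%. With Hist1h4h (650 counts), Hist1h2be (212), Hist1h4i (123) and Hist3h2ba (97), the top 8 held 96.8%. The other 62 members shared 731 counts, 3.25% of the total, and none of them exceeded 18 counts in any library.

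Among those 62, 17 had no count in any library, 25 had 1 to 10, 11 had 11 to 30 and 9 had 31 to 74 over the 8 libraries. A count of 0 over all libraries allows a level of up to 0.0172 CPM, for counting error only. Library totals ran from 14226342 to 24910243 counts. The members' share of all counts was 0.0105% to 0.0195% per library, and the 95% Wilson interval of the lowest share was 0.0101% to 0.0109%. The plot of counts by class shows how far the leading genes stand from the rest.

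**Figure D1:**
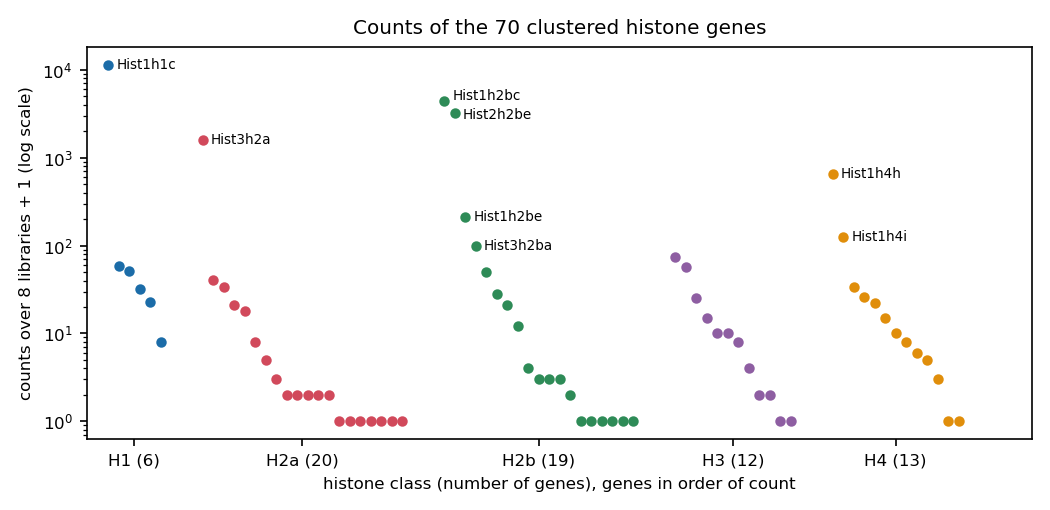
Counts over the 8 libraries plus 1, on a log axis, for each of the 70 members, grouped by histone class and ordered by count; the 8 named genes are those that passed the filter on low counts. In each of H1, H2a, H2b and H4, 1 or a few genes stand above all others, while the highest H3 gene has 74 counts.

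The linker histones were the class with the most counts, 51.5% of the members' total, and Hist1h1c made up 98.6% of them. Its counts were 1139, 1460, 2680 and 984 in the males of litters 1 to 4 and 1061, 1023, 1758 and 1315 in the females. Hist1h1e and Hist1h1d, which encode other somatic linker histones, had 58 and 50 counts over all libraries, with 4 to 11 and 2 to 11 per library. Hist1h1a had 31 counts, Hist1h1b 22 and Hist1h1t, which encodes a testis linker histone, 7. Per length, as RPKM (CPM per 1000 bases of annotated exon), the mean level was 43.7 for Hist1h1c and 0.173, 0.039, 0.229, 0.169 and 0.042 for Hist1h1e, Hist1h1d, Hist1h1a, Hist1h1b and Hist1h1t. H1f0, the linker histone gene outside the clusters that is known from cells that have stopped dividing, had 72.2 RPKM, above Hist1h1c.

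H2b genes held 36.0% of the counts, led by a pair of genes at steady levels. Hist1h2bc was at 21.6, 24.3, 28.2 and 24.3 CPM in the males of litters 1 to 4 and at 26.5, 25.5, 30.2 and 25.6 CPM in the females. Hist2h2be was at 17.2, 20.7, 20.3 and 17.2 CPM in the males and 18.1, 18.01, 18.6 and 17.2 CPM in the females. Its highest library was 1.21 times its lowest, the smallest such ratio among the 8 leading members. The third H2b gene, Hist1h2be, had 10 to 37 counts per library, and its annotated exons overlap Hist1h1e and Gm11398, so that its reads may not be its own.

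H2a genes held 7.64% of the counts, and Hist3h2a held 92.6% of those. It was at 9.19, 7.49, 6.88 and 10.1 CPM in the males of litters 1 to 4 and at 7.83, 9.51, 11.95 and 11.1 CPM in the females. Its highest and lowest libraries were the female and the male of litter 3, so the spread within that litter was as large as the spread over all. The annotated exons of Hist3h2a overlap Gm44313 and Trim17, and 29.8% of its windows of 100 bases also occur in another gene, which makes its level uncertain. Annotated exons of every other H2a gene also overlap another gene, while those of most members of the other classes do not. The part of these overlaps in the counts of the class was not tested. Hist2h2ab had 40 counts in all and Hist1h2ad 33, and most windows of each (59.7% and 63.6%) occur in other genes.

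H4 genes held 3.97% of the counts. Hist1h4h was at 3.57, 3.03, 2.97 and 4.09 CPM in the males and 3.96, 4.66, 2.60 and 4.48 CPM in the females, with litter 3 lowest. Hist1h4i had 12 to 21 counts per library, and Hist4h4, which lies apart from the clusters, had 33 counts over all libraries. Per length, Hist1h4h, with its short transcript, was at 7.81 RPKM, slightly above Hist2h2be at 7.03 RPKM.

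H3 genes held only 0.879% of the counts, with a summed level of 0.547 to 1.69 CPM per library. Hist2h3c2 had 74 counts over all libraries, with 61.6% of its windows shared with another gene, Hist1h3d had 56 and Hist1h3g 24. The replacement H3 genes H3f3b and H3f3a, which are known to supply H3 outside S phase, were at 54.3 and 42.6 RPKM. No clustered H3 gene passed the filter on low counts, so none entered the tests below.

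The annotated 3′ ends of the leading members set them apart from most members, as the plot of counts against 3′ UTR length shows. Of the 8 leading genes, 7 have a poly(A) hexamer in the last 50 annotated bases, while 10 of the other 62 members do. The exception is Hist1h2bc, whose annotated transcript has 2 exons and neither a hexamer at its end nor a stem-loop match. Members with a 3′ UTR over 500 bases were 17 of 67 and held 94.1% of the counts; the 37 with a shorter one held 5.37%, and the 13 annotated without one held 0.484%. A long end with a hexamer did not go with counts in every case: of 9 such members, 3 had no count in any library. These are Hist2h3c1, Hist1h2bq and Hist1h2br, with 100%, 94.6% and 85.8% of their windows shared with other genes. In Hist1h2bq the hexamer is not at the end of the longest transcript, from which the UTR length was taken. Annotation of a long 3′ UTR may itself follow from the sequencing of polyadenylated RNA, so the 2 measures are not independent. Labels and protocol differ on the library, with poly(A) RNA as the molecule and a total RNA kit, and the part of library type in these levels was not tested.

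**Figure D2:**
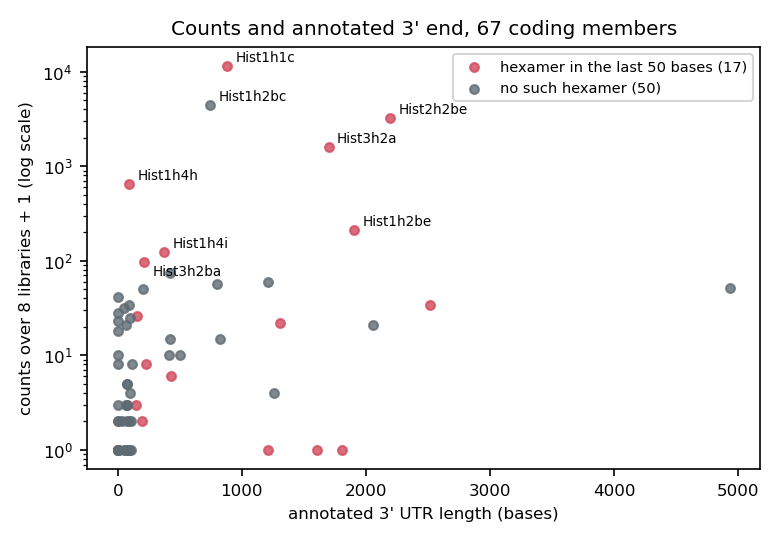
Counts over the 8 libraries plus 1, on a log axis, against the annotated 3′ UTR length of the longest transcript in bases, for the 67 coding members. Red points have AATAAA or ATTAAA in the last 50 annotated bases of any transcript. Of the 8 named genes all but Hist1h2bc are red, and 5 have a 3′ UTR over 500 bases.

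Many members stand head to head, with nearby starts on opposite strands, and in the 3 such pairs with the most counts nearly all of them lay on 1 side. Of 15 pairs with starts within 1000 bases, 14 join an H2a and an H2b gene and 1 joins Hist1h2bh with Hist1h3f. Hist1h2bc had 4468 counts and its partner Hist1h2ac 20, a ratio of 223. Hist2h2be had 3222 counts and its partner Hist2h2ac 0, a ratio of counts of at least 1074 against a floor of 3 counts over the 8 libraries. Hist3h2a had 1593 counts and the pseudogene Hist3h2bb-ps 11, a ratio of 145. These ratios are of counts and are not corrected for length. Annotated exons span 1156 bases in Hist1h2bc and 2482 in Hist1h2ac, and 2620 in Hist2h2be and 520 in Hist2h2ac. They span 2146 bases in Hist3h2a and 465 in Hist3h2bb-ps. In the other 12 pairs no gene had more than 49 counts, and 3 of them were also unequal: Hist1h2bg had 49 counts and Hist1h2ae 1, Hist1h2ad 33 and Hist1h2bf 0, and Hist1h2bn 27 and Hist1h2ak 1. In the partners with fewer counts, shared sequence was 8.06% of the windows of Hist1h2ac and 16.9% of those of Hist2h2ac. Their annotated exons also overlap other genes, Gm24991 and Gm44350 for Hist1h2ac and Gm44492 for Hist2h2ac. Those of Hist1h2bc and Hist2h2be overlap none. The part of these overlaps in the low counts was not tested.

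The stretch between the starts is shown for the first 2 of these pairs, because the same bases lie upstream of a gene with many counts and of one with few or none. It is written along the plus strand, with the minus-strand gene (Hist1h2ac or Hist2h2ac) starting at its left edge and the plus-strand gene at its right. Capitals mark the CCAAT box, the TATA box (letters TATAAA) and the octamer motif of histone promoters (letters ATGCAAAT), found on the plus strand or, as the reverse complement, on the minus strand. The first is chr13:23683949-23684198 (250 bases) and the second chr3:96220881-96221118 (238 bases), both upstream of the annotated transcripts, with sequence from RefSeq's promoter table for GRCm38.p6.
Hist1h2bc: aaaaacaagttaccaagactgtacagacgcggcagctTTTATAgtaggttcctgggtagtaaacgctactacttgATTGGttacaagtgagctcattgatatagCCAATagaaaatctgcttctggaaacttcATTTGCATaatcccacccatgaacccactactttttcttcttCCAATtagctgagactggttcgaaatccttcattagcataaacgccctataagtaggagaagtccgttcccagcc
Hist2h2be: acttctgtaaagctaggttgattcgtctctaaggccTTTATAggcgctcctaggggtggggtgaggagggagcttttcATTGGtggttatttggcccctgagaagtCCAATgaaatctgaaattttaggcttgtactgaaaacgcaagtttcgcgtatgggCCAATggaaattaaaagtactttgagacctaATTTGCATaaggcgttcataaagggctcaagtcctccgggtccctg
Both stretches hold 3 CCAAT letters, 1 TATAAA and 1 octamer. The TATAAA lies on the minus strand, 37 bases from the start of Hist1h2ac in the first and 36 bases from that of Hist2h2ac in the second, on the side of the gene with the lower count. Only these exact letters were searched. Similar letters that are not marked stand near the other starts, tataag before Hist1h2bc and cataaa before Hist2h2be, so the marks do not show a TATA box on 1 side only. The octamer lies 38 bases from the start of Hist2h2be and 109 bases from that of Hist1h2bc. The same letters were searched in the promoters of the 61 members that have one in the table, over 250 bases before the start and on both strands. CCAAT occurred in 82.0%, TATAAA in 47.5% and the octamer in 21.3%. Hist1h2bc and Hist2h2be are not among these 61. Among all 32851 promoters of the table these shares were 33.9%, 12.4% and 1.60%.

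**Figure D3:**
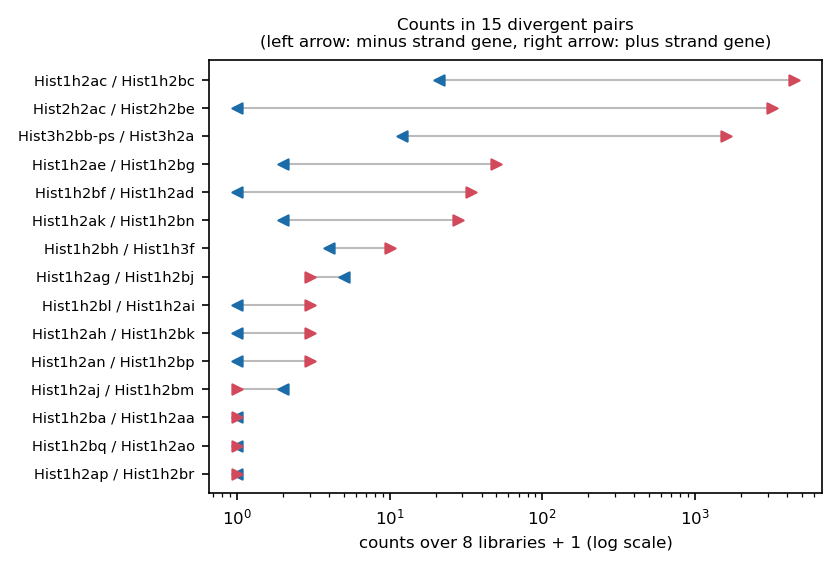
Counts over the 8 libraries plus 1, on a log axis, for the genes of the 15 divergent pairs; left-pointing marks are the minus-strand genes and right-pointing marks the plus-strand genes. The top 3 pairs have 1593 to 4468 counts on 1 side and 0 to 20 on the other.

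Many members are near-identical copies, and how reads with several matches were counted is not given in the sources used here. Of the 70 members, 29 have at least 50% of their windows in other genes, and they had 227 counts in all. The remaining 41 carried 99.0% of the counts. Outside the leading 8, 33 members have under 50% of their windows shared, and the highest of them had 58 counts. In 5 of the 62 no window was shared, and these had 7 to 31 counts each. The part of shared sequence in the low counts was not tested.

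The comparison of sexes asked whether male and female cardiomyocytes differ in histone gene expression. The filter on low counts kept 8 members, those named above as leading, and left out 62. None of the 8 had an adjusted p-value under 0.05 in edgeR's quasi-likelihood test, against 0.0436% of the 13771 genes tested, and none had an unadjusted p-value under 0.05. Nor did DESeq2's Wald test call any. With litter as a block, again none of the 8 passed, against 0.211% of all genes. Fold changes given here are male minus female on the log2 scale.

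Hist1h1c averaged 69.6 CPM over the 4 males, with an SD of 33.5, and 66.9 CPM over the 4 females, with an SD of 37.997. Its log2 fold change was 0.07 with a 95% interval of -0.74 to 0.88, and the male was the higher of the pair in 2 of 4 litters. The groups overlap fully, since each holds a litter 3 library far above the others. With litter as a block the difference was 0.10 with an SE of 0.07, against an SE of 0.37 without it. For the 2 leading H2b genes the intervals without the block were -0.33 to 0.09 around -0.12 for Hist1h2bc, where the female was the higher in all 4 litters, and -0.12 to 0.27 around 0.08 for Hist2h2be. The log2 fold change of Hist3h2ba, an H2b gene with 7 to 26 counts in each library, was 0.63 (interval -0.25 to 1.51, adjusted p = 1.00). It met the filter on low counts, 0.432 CPM in at least 4 libraries, in 4 males and 1 female, so that its entry into the test rested mainly on the males.

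Litters differed in 1 of the 8 tested members, Hist1h1c. The test of the 3 litter terms together called 12.5% of the tested members and 32.1% of all genes, so the members' share lay below the background. Hist1h1c was at 45.7 and 43.8 CPM in the male and female of litter 1, 61.4 and 46.8 in litter 2, 119 and 124 in litter 3 and 52.2 and 53.6 in litter 4. Litter 3 stood apart from the other 3 litters in both sexes, and no library of another litter came near it. The range over litters was 1.41 on the log2 scale (edgeR adjusted p = 1.01e-05). Without litter 3 the range fell to 0.31 and 0 members passed (adjusted p = 0.108 for Hist1h1c). Hist3h2ba came next, with a range of 1.23 and an adjusted p of 0.115, and its range ran from 0.35 to 1.36 over the alternatives.

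Each litter was then set against the mean of the other 3, with comparisons that share libraries and are not independent. In litter 3, 2 members were higher, against 13.6% of all genes higher there, and 0 were lower, against 14.8%. Hist1h1c rose by a log2 difference of 1.22 (SE 0.08, adjusted p = 1.61e-06), and its mean CPM was 2.40 times the mean of the other libraries. Leaving out each library in turn gave 1.12 to 1.33, and Hist1h1c passed each time. Hist3h2ba had 26 and 10 counts in the male and female of litter 3 and 7 to 13 counts elsewhere, a log2 difference of 1.02 (SE 0.33, adjusted p = 0.0373). It missed the threshold with any 1 library left out, at adjusted p-values from 0.0546 to 0.355, and without the low-count filter (0.0702).

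The 6 other tested members missed the threshold in litter 3, with differences in both directions. Hist1h2bc, whose litter 3 libraries (28.2 and 30.2 CPM) lay above those of the other litters (21.6 to 26.5 CPM), had a log2 difference of 0.20 (adjusted p = 0.0704), and it passed when libraries were scaled by their totals alone (adjusted p = 0.0305, with 0.0305 to 0.291 over all alternatives). Hist1h4i had 0.63 (adjusted p = 0.276), Hist2h2be 0.07 (adjusted p = 0.606) and Hist1h4h -0.52 (adjusted p = 0.0763). Hist1h4h passed without the low-count filter (adjusted p = 0.0454) and without the male of litter 2 (0.0388), in a range of 0.0388 to 0.498 over all alternatives. Over the 8 members the median difference was 0.14, against 0.00 over all genes. Hist1h1c made up 63.5% and 64.2% of the members' counts in litter 3 and 40.7% to 50.5% elsewhere. Without it, the members' summed level was 66.3 and 71.1 CPM in litter 3, against a range of 58.8 to 64.3 CPM over the other libraries.

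In litter 1, 1 member was lower, against 5.41% of all genes lower there, and 0 were higher, against 7.86%. It was again Hist1h1c, which fell by 0.66 on the log2 scale (SE 0.09, edgeR adjusted p = 0.000655). The mean of the others includes litter 3 at 121 CPM. Litter 1 averaged 44.7 CPM, against 54.1 and 52.9 CPM in litters 2 and 4, and the range over litters without litter 3 was 0.31. In litters 2 and 4 no member passed, against 4.18% and 10.5% of all genes, and Hist1h1c lay nearest to the threshold in both (adjusted p = 0.0616 and 0.0835).

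**Figure D4:**
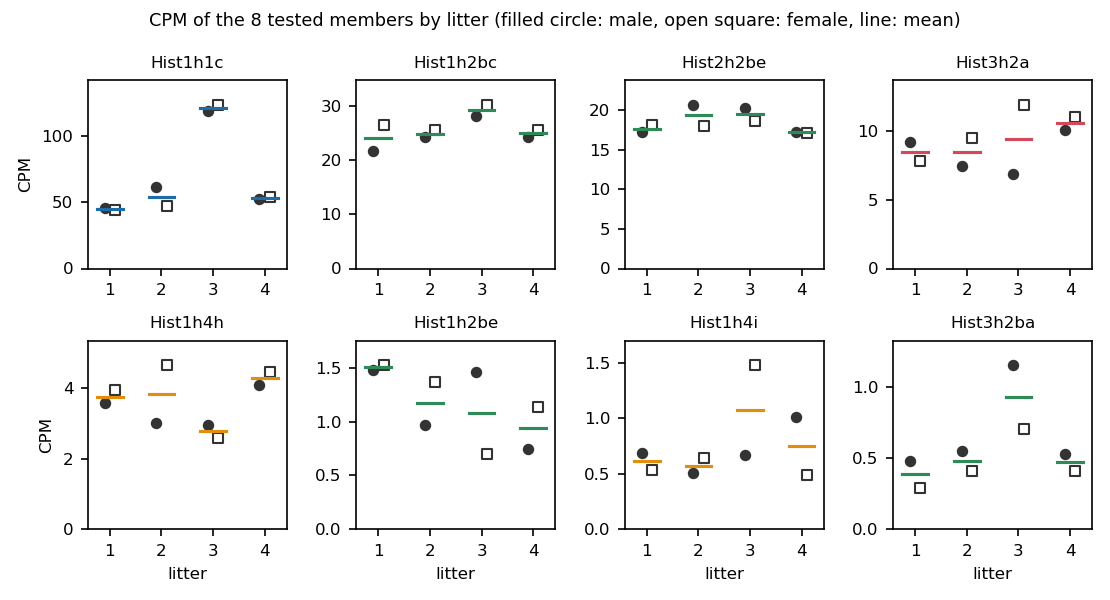
CPM of the 8 tested members in each litter, with filled circles for males, open squares for females and a line at the mean of the 2; each panel has its own axis from 0. Hist1h1c is at 119 and 124 CPM in litter 3 and at 43.8 to 61.4 CPM elsewhere, while Hist2h2be stays between 17.2 and 20.7 CPM.

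Genes of DNA replication and of cell division, the processes that the clustered histone genes are known to serve, moved between litters the other way from Hist1h1c. Of 30 S phase genes, 28 passed the threshold as lower in litter 3, against 14.8% of all genes, with a median log2 difference of -0.90. In litter 1, 27 passed as higher, against 7.86% of all genes, with a median of 0.68. The median over all genes was 0.00. Rrm2, a subunit of the enzyme that makes deoxynucleotides, was at 17.7 and 23.2 CPM in the male and female of litter 3 and 68.9 and 57.4 CPM in litter 1 (litter 3 log2 difference -1.28, edgeR adjusted p = 2.64e-05). Mcm5, part of the replicative helicase, had a difference of -1.24. Of 24 G2/M genes, all 24 passed as lower in litter 3 (median -1.86) and all 24 as higher in litter 1 (median 1.32). Cenpe, a kinetochore motor, had -2.26 in litter 3, Ccnb1, the mitotic cyclin, -2.42 and Hmmr, a spindle protein, -2.20. The count of 27 S phase genes fell to 5 without the male and 9 without the female of litter 1, and that of 28 to 17 without the male of litter 3. The lists were chosen with earlier results of these data known, so their direction is no independent evidence.

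The 62 members left out by the filter did not show that order of litters. Their summed level was 4.70 and 4.85 CPM in litter 3, 4.58 and 5.03 in litter 1, 2.69 and 4.16 in litter 2 and 3.56 and 3.99 in litter 4. Litter 3 thus overlapped litter 1, with 64 to 122 counts per library behind these sums. With no filter on low counts, 53 members entered the litter 3 test and 2 passed, Hist1h1c and Hist1h4h, against 17.3% of all genes in that run. Neither is among the 62.

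**Figure D5:**
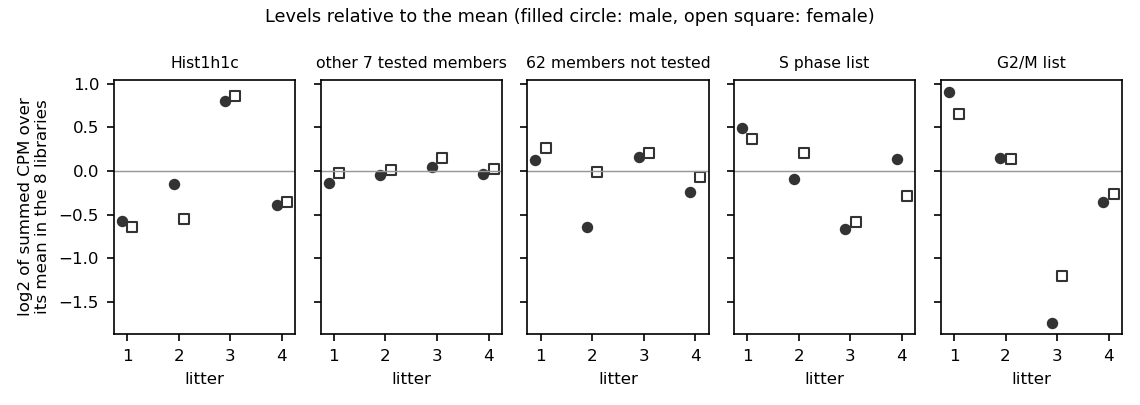
Summed CPM of Hist1h1c, of the other 7 tested members, of the 62 members not tested and of the S phase and G2/M lists, as log2 over its own mean in the 8 libraries, by litter; filled circles are males and open squares females. Hist1h1c is highest in litter 3 (0.80 and 0.86), where the G2/M list is lowest (-1.73 and -1.20). The other 7 tested members lie between -0.14 and 0.15, and the 62 members not tested between -0.64 and 0.26.

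Of 11 replacement histone genes, 2 were higher and 3 lower in litter 3, against 13.6% and 14.8% of all genes. With a library left out the 2 became 1 without either library of litter 3, and the 3 ran from 2 to 4. H3f3b rose by a log2 difference of 0.64 (SE 0.07, edgeR adjusted p = 8.14e-05) and H1f0 by 0.27 (SE 0.07, adjusted p = 0.0112). Cenpa, the centromeric H3, fell by 0.74 (adjusted p = 0.000459), and H2afz, an H2a variant found at promoters, fell by 0.39 (adjusted p = 0.00391). The difference of Hist1h1c was thus larger than that of any replacement histone gene on the list.

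Markers of other cell types also moved with litter 3, and their part in the Hist1h1c result was not tested. In bulk samples fewer cells of a type and less RNA per cell cannot be told apart. Cardiomyocyte markers had summed levels of 61890 to 63770 CPM in litter 3 and of 66890 to 78560 CPM elsewhere. Of the 8, Actc1, Myh6 and Myl3 were lower in litter 3, which is 3 against 14.8% of all genes, and 0 were higher, with Tnnt2 at 13038 and 13624 CPM there and 11588 to 13037 CPM elsewhere. Fibroblast markers summed to 33.1 to 53.0 CPM against 104.5 to 246.0, with 6 of 8 lower. Endothelial markers summed to 19.1 to 19.5 CPM against 17.1 to 153.6, with 6 of 8 lower. Mural markers summed to 563.3 to 565.1 CPM against 450.3 to 610.3, within the range of the other litters, with Pdgfrb, Rgs5 and Myh11, 3 of 6, lower and most of the sum from Abcc9 and Cspg4, which were not called. Erythroid markers summed to 189.3 to 544.0 CPM against 100.2 to 249.5, with 2 of 6 tested higher. Of 6 macrophage markers, 2 were tested and 0 differed in litter 3 against the others, and Fcgr1 was at 0 in all libraries. Epicardial markers summed to at most 4.63 CPM, with 1 of 4 tested lower in litter 3, and Schwann cell markers to at most 14.1 CPM, with 1 tested and 0 called. The 5 lymphoid and neutrophil markers had at most 3 counts in any library, with Cd3e at 0.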

How the data were processed

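The authors deposited 1 table of raw counts per gene symbol, 1 column per sample. The submitters' processing notes name STAR 2.7.3a and mm10; the counting program, annotation, strand setting and treatment of reads with several matches are not given in the sources used here. Per the labels' protocols, 1 µg of total RNA entered a stranded total RNA kit, sequenced as single 100-base reads. In the labels a sample's number is its litter, which pairs each male with the female of that litter; deviations from the sex means correlated at 0.506, 0.503, 0.696 and 0.367 within litters 1 to 4 and at -0.482 to 0.270 between litters. No library repeated another (chi-square per degree of freedom 9.56 to 44.9 within a sex). Samples of a group come from different litters.

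Analysis used edgeR 4.0.16 in R 4.3.3, with DESeq2 1.42.0 as an alternative, and pandas 2.3.3 in Python 3.11.15. filterByExpr on sex kept 13771 genes, scaled with TMM. Sex was tested without a block (6 residual degrees of freedom) and litter in a model with sex (3), by quasi-likelihood F tests with Benjamini-Hochberg adjustment over all genes and a threshold of 0.05. Standard errors are the log2 difference over the square root of F. In simulated counts with known changes, most changed genes were recovered, and the share of false calls ran above the threshold, most in the litter test. Shared sequence is the percent of 100-base windows of a GENCODE M21 transcript found in another gene. Wilson intervals and the floor of 3 counts cover counting error only. Alternatives were other scalings, filters, tools, the block and each library or litter left out. Members and lists were chosen with earlier results of these data known. Named members are the 3 highest of each class, those past a threshold and those nearest to it, and named list genes the 3 with the largest litter range. Exceptions, chosen after their values were seen, are H1f0, H3f3a, Slbp, Tnnt2, Myl3, Abcc9, Cspg4 and 3 further members of H1. So are those named for an annotated feature or a count of 5 or fewer. 1 gene that this rule would name is not reported here.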

Additional observations from a re-analysis of the deposited data

Results flagged for a closer look

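The females of the 4 litters included 1 that stood far from the other 3 in several measures. Hist1h1c was at 123.6 CPM in the female of litter 3 against 43.8 to 53.6 CPM in the other females, and the summed H1 genes were at 124.6 CPM against 44.5 to 54.4. The summed members were at 194.7 CPM there against 107.5 to 117.9, and Hist1h4i was at 1.476 CPM, from 21 counts, against 0.489 to 0.640. Among the males, Hist3h2ba was at 1.154 CPM in litter 3, from 26 counts, against 0.482 to 0.547. These 5 were found among 30 groups of 4 libraries examined for 1 distant value, where chance gives about 1.5, and 3 of the 5 share the counts of Hist1h1c. In Hist1h1c the male of litter 3 was also the highest of its sex. The female library of litter 3 has the lowest total, 14226342 counts.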

How the results depend on the processing

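The sex test called 0 members under each alternative run, with the replicate block as without it. The litter test called 1 under each, except without litter 3, so leaving out a library or litter gave 0 to 1. Litter 1 gave 1 each time. Litter 2 gave 1 without the low-count filter, and 0 to 1 with a library left out. Litter 3 gave 3 with library size alone, which added Hist1h2bc, 1 at a mean of at least 50 counts, where Hist3h2ba was not tested, and 1 to 2 with a library left out. Litter 4 gave 1 with library size alone and 2 without the filter, and 0 to 1 with a library left out; the cause was not tested. Over all genes the block raised the sex calls from 6 to 29. Without the male or the female of the same litter, the calls over all genes went from 1827 to 359 or 411 in litter 1, from 575 to 241 or 153 in litter 2, from 3903 to 2234 or 1704 in litter 3, and from 1447 to 322 or 433 in litter 4, which gave 772 or 740 without the male or the female of litter 1. Litter 2 gave 1249 without the filter and 345 at a mean of at least 50 counts, and the litter test went from 4427 to 1898 without litter 3. With mitochondrial genes left out of the total, the members' share was 0.0123%, 0.0136%, 0.0223% and 0.0139% in litters 1 to 4, and without Hist1h1c it was 0.00613%, 0.00622%, 0.00687% and 0.00630%. The members' summed CPM in litters 1 to 4 against the others, -0.41, -0.24, 0.75 and -0.25 on the log2 scale, became -0.077, -0.048, 0.145 and -0.026 without Hist1h1c, an alternative chosen after seeing the data, as was leaving out libraries here; TMM scaling made litter 4 -0.17. Uncalled members changed sign with 1 library left out: the sex difference ran from -0.30 to 0.35 in Hist1h4i, -0.21 to 0.11 in Hist1h2be and -0.30 to 0.52 in Hist1h1c. The litter 3 difference ran from -0.43 to 0.31 in Hist3h2a, -0.16 to 1.38 in Hist1h4i and -0.95 to 0.43 in Hist1h2be, and the litter 1 difference from -0.18 to 0.014 in Hist2h2be, -0.46 to 0.18 in Hist3h2a and -0.023 to 0.17 in Hist1h4h. The filter on low counts left 62 members out of the tests, and 53 of the 70 members entered them without it.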

Other observations

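Of 17 tested genes that make and process histone mRNA, 4 passed the litter test, against 32.1% of all genes. In litter 3, 1 was higher and 4 were lower, against 13.6% and 14.8% of all genes, with a median log2 difference of -0.08. With a library left out the 4 ran from 1, without the female of litter 3, to 5, and were 2 when the litter 1 male or the litter 3 male was dropped, while the 1 higher gene was lost on dropping any 1 of the 4 females, the litter 1 male or the litter 4 male. Eri1, the exonuclease that trims the histone stem-loop, had -0.47 in litter 3 (edgeR adjusted p = 0.00471), and Lsm11, part of the U7 particle that cuts histone mRNA, -0.34 (adjusted p = 0.0355). Slbp, the stem-loop binding protein, chosen here for its role, was at 17.3 and 20.5 CPM in litter 3 and 17.2 to 20.2 CPM elsewhere. Cpsf2, a subunit of the cutting complex, had -0.05 in litter 3 and 0.28 in litter 1 (adjusted p = 0.0150).

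Of 20 histone chaperone genes, which hand histones on to DNA, 10 passed the litter test, against 32.1% of all genes. In litter 3, 3 were higher and 6 lower, against 13.6% and 14.8% of all genes, with a median log2 difference of -0.03. Without the male or the female of litter 3 the 3 became 1 and the 6 became 4. The 3 with the widest range over litters were lower in litter 3: Asf1b by -1.15 (edgeR adjusted p = 0.000229), Chaf1a by -0.80 (adjusted p = 0.00503) and Chaf1b by -0.73 (adjusted p = 0.00924). All 3 are known to serve the assembly of new chromatin behind the replication fork. By sex, 0 of the chaperone, processing, replacement histone, S phase and G2/M genes passed.

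RNAs known to lack a poly(A) tail were looked up after the values were seen. Rn7sk, which has many copies in the genome, was at 2.53 to 5.95 CPM, Rpph1 at 0.868 to 2.77 CPM and Rmrp at 0.295 to 1.26 CPM, from 5 to 146 counts per library.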
